A study of Mus musculus with 4 samples.

Results

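The genes encoding the proteins of the cytoplasmic ribosome were followed in mouse embryoid bodies labelled Trim33-deficient and in Control bodies. Trim33 is a chromatin-binding ubiquitin ligase that partners with SMAD proteins. The ribosomal protein genes were taken by symbol, as Rpl or Rps followed by a number with an optional a or x, together with Rplp0, Rplp1, Rplp2 and Rpsa. This gave 76 of the 24015 genes in the files, 46 of the large subunit and 30 of the small subunit. Homologs whose symbols carry other endings, such as Rpl22l1, and the ubiquitin-like fusion gene Fau lie outside this choice and are described apart from it.

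Ribosomal proteins assemble on ribosomal RNA, the small subunit decoding the messenger RNA and the large subunit joining amino acids, and cells make them in near equal numbers because unassembled copies are degraded. Most of their messenger RNAs start with an uninterrupted run of pyrimidines, the 5′ terminal oligopyrimidine (TOP) tract, through which mTOR signalling and the RNA-binding protein LARP1 control their translation and stability. Their abundant and mostly short messenger RNAs have been copied back into mammalian genomes many times, so that most of these genes have near-identical processed pseudogenes.

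The embryoid bodies came from embryonic stem cells of an outbred background at passages 8 to 10. According to the labels the lines derived from embryos homozygous for a floxed Trim33 allele that also carried UbcCreERT2, a Cre recombinase expressed from the ubiquitin C promoter and activated by tamoxifen. The Cre was activated with 4-hydroxytamoxifen on day 4, and collection followed on day 7. The 2 Control libraries are labelled wild type, which leaves unsettled whether Control bodies carried the floxed allele or Cre, or received tamoxifen, and the 2 Trim33-deficient libraries complete 2 independent pairs. The labels do not give the number of stem cell lines, and the spread between replicates may be partly technical. Counts in genes ran from 10422738 to 13808837 per library. For Trim33 itself the Control libraries held 1203 and 1117 counts, against 608 and 495 in the Trim33-deficient libraries. In CPM, counts relative to the TMM-scaled library size, these were 93.0 and 109 against 43.9 and 42.3, so Trim33 transcript was still counted in the deficient bodies. All 15 embryoid body marker genes looked at passed the low-count filter. The library least like the rest was Control replicate 1, whose Pearson correlation over genes was 0.932 to 0.952 with any other library, while the others correlated at 0.967 to 0.978.

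The level recorded for a ribosomal protein gene followed how much of its coding sequence also occurs elsewhere. Each coding sequence of the GENCODE M21 annotation (GRCm38) was divided into overlapping windows of 50 bases, and windows found word for word in a transcript of another gene were counted as shared. A median of 91.5% of windows was shared over the 76 ribosomal protein genes, against a median of 0% over 13118 tested genes. More than 50% of windows were shared in 65 of the 76 (85.5%), against 3.35% of tested genes. A stretch of Rps3 and its pseudogene shows how a gene with little sharing differs from its copy. It is coding sequence, 5′ to 3′, from the GENCODE transcripts on GRCm38. Capitals mark the bases at which the pseudogene differs from the gene above it.
Rps3: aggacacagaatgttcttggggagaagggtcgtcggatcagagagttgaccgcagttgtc
Gm8130: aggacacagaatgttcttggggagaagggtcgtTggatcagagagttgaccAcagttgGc
Rps3 is shown from coding base 160 to 219, where its pseudogene begins to match. Rps3 shared 8.05% of windows with its pseudogene Gm8130, which differed at 3 of the 60 bases shown and at 24 of 570 aligned bases. Rps29, at the other extreme, shared 100% of windows.

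Levels between genes were compared as CPM per kilobase of transcript. Rpl8, a protein next to the peptidyl transferase centre, had the highest level, 1676 and 1792 CPM per kilobase in Control bodies, against 1588 and 1436 in Trim33-deficient bodies. Rpl4, which lines the peptide exit tunnel, stood at 1175, 1216, 1059 and 912 CPM per kilobase in the same order of libraries, below Rpl8 in each of them. Rplp1, an acidic protein of the stalk that recruits elongation factors, had a mean of 814 CPM per kilobase and Rps15, a protein of the small subunit head, at 761. Their order is not separated by the spread, since Control replicate 2 had 848 CPM per kilobase for Rplp1 and 874 for Rps15.

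At the other end, the 5 tested genes with the lowest levels were Rpl23a, Rps16, Rpl38, Rpl21 and Rpl34, with means of 1.54, 1.73, 2.15, 2.16 and 2.32 CPM per kilobase. This order depends on the 1 transcript taken for each gene, 1856 bases long for Rpl21 with 483 coding bases. By mean CPM, Rps28 (0.985) and Rps27 (1.09) lay below Rps16 (1.92) and Rpl21 (4.00). The highest tested level was 1056 times the lowest, although the encoded proteins enter the ribosome in near equal numbers. Rps29, with every window shared, had 3 and 5 counts in Control, against 2 and 2 in Trim33-deficient bodies. Rpl26, a protein at the polypeptide exit with 12 pseudogenes that share windows, had 0 counts in all 4 libraries, and a count of 0 allows up to 3 counts in each.

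The 11 genes with under 50% of windows shared had a median of 672 CPM per kilobase (range 170 to 1623). The 37 with 50% to under 100% shared had a median of 54.3, and the 28 with every window shared a median of 5.05. Across the 76 genes the Spearman correlation of level with the share of windows was −0.70, and with the number of pseudogenes that share windows it was −0.39. Genes are not independent replicates, and all points share the same 4 libraries. Rpl41, whose coding sequence has only 78 bases, went against this order, with every window shared and 351 CPM per kilobase. Up to 119 pseudogenes shared windows with a single gene (Rpl7a), and 71 did so with Rps2. The files record no reads that aligned to more than 1 place. How reads with several possible origins were treated before counting is not recorded, and its part in the low values was not tested. Rpl7a, with the most copies, stood at 142 CPM per kilobase.

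**Figure D1:**
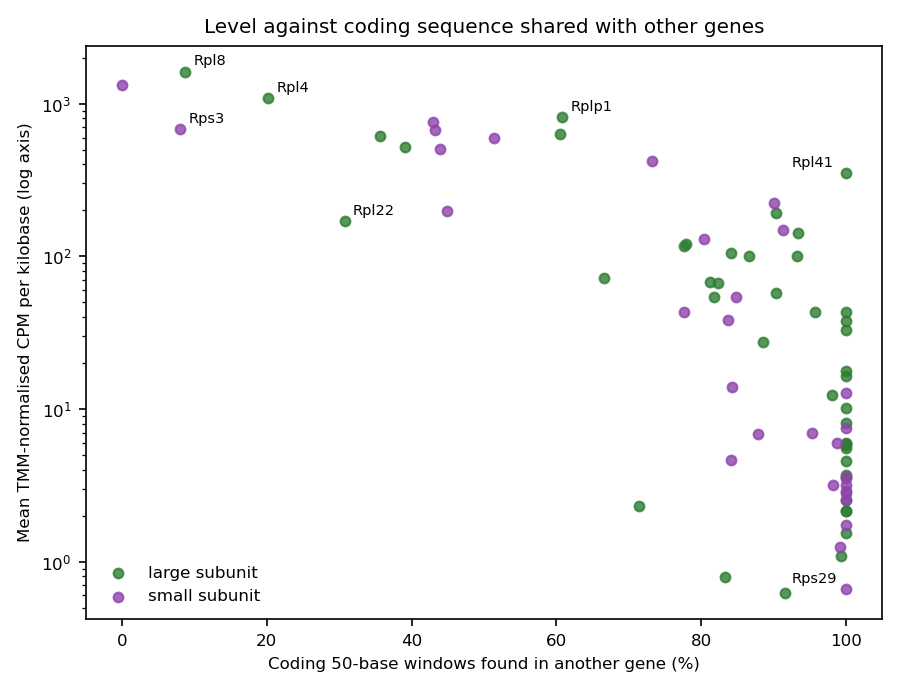
Mean level of the ribosomal protein genes over the 4 libraries, in TMM-normalised CPM per kilobase on a log axis, against the percentage of 50-base coding windows found in another gene. Genes with under 50% shared lie between 170 and 1623 CPM per kilobase, and the genes at 100% spread from 0.664 to 351. Rpl26 (0 counts) is not drawn.

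The comparison of Trim33-deficient with Control bodies asks which genes depend on Trim33. Ribosomal protein transcripts were lower in Trim33-deficient bodies by a small amount across both subunits, and no single gene passed the test. Of the 76 genes, 70 passed the low-count filter, 42 of the large and 28 of the small subunit. Their log2 fold changes lay below 0 in 64 of 70 (91.4%), against a background of 50.2% of the 14259 genes tested. The median log2 fold change was −0.24, against −0.0014 over all genes tested. The edgeR quasi-likelihood test with Benjamini-Hochberg adjustment called 0 of 70, with a lowest adjusted p of 0.577 for Rpl3, against a background of 0.014% called lower (2 genes) and 0% called higher. Trim33 itself, at a log2 fold change of −1.23, was not called either (adjusted p = 0.219, edgeR quasi-likelihood test). At an unadjusted p under 0.05 the same test had 6 of 70 lower (background 4.78%) and 0 higher (background 3.06%). DESeq2 and edgeR's likelihood ratio test also called 0 of 70, and limma voom called 0 among all genes. Over all genes DESeq2 called 0.807% lower and 0.182% higher, and the likelihood ratio test 0.982% lower and 0.203% higher. At an unadjusted p under 0.05 DESeq2 had 4 of 70 lower (background 3.91%) and 0 higher (background 2.85%).

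Summed over the 76 genes, the level was 12591 and 13685 CPM in Control, against 11957 and 10498 CPM in Trim33-deficient bodies. Both Trim33-deficient sums lay under both Control sums. Control averaged 13138 ± 774 CPM (SD, n = 2), while the Trim33-deficient mean of 11228 ± 1032 CPM (SD, n = 2) was 85.5% of it. As a share of all counts in genes, the 76 genes took 1.32% and 1.34% in Control and 1.20% and 1.02% in Trim33-deficient bodies. In bulk RNA, fewer cells of a type and less RNA per cell cannot be told apart. Markers of visceral endoderm, an epithelium that covers embryoid bodies, moved with the same groups. Their summed level was 1707 and 2281 CPM in Control and 657 and 771 CPM in Trim33-deficient bodies. Of the 19 tested markers 17 lay below 0 (background 50.2%), and Alb had 0 counts in every library. Of the 15 embryoid body markers 11 lay below 0 (background 50.2%) with a median log2 fold change of −0.53. Gata4, Sox17 and Foxa2 are on both lists. The summed level of the embryoid body markers overlapped between groups, at 715 and 762 CPM in Control against 928 and 575 CPM in Trim33-deficient bodies. In Trim33-deficient replicate 1 the cardiac genes Tnnt2 and Myl7 had 235 and 163 CPM, against at most 57.5 and 34.3 CPM in any other library. The part of either marker list in the lower ribosomal protein levels was not tested.

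The difference was larger in the second pair of libraries. Within replicate 1 the Trim33-deficient sum was 5.03% under the Control sum, and within replicate 2 it was 23.3% under it. The median log2 difference was −0.10 in replicate 1, with 53 of 70 genes below 0 (background 50.1%), and −0.41 in replicate 2, with 65 of 70 below 0 (background 49.4%). Trim33-deficient replicate 2 was the lowest library for 54 of 70 genes (background 28.9%) and Control replicate 2 the highest for 50 (background 21.6%). Control replicate 1 was the highest for 12 (background 31.7%), and Trim33-deficient replicate 1 the lowest for 12 (background 17%). Replicates of 1 group also differed in a coordinated way, by a median log2 difference of 0.14 between Control replicates 2 and 1 and −0.19 between Trim33-deficient replicates 2 and 1. The spread between replicates is thus of the same order as the median difference between the groups.

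For 47 of 70 genes both Trim33-deficient values lay under both Control values (67.1%, background 21.4%), and the opposite held for 0 (background 19.3%). Lower values within both pairs were seen for 50 of 70 (background 29.8%), and higher values within both for 2 (background 30.3%), the small subunit genes Rps6 and Rps25. Without Control replicate 1, the library that stood apart, the median log2 fold change was −0.32 and 64 of 70 lay below 0. Without Trim33-deficient replicate 2 it was −0.17 with 62 of 70 below 0, and 0 genes kept an unadjusted p under 0.05.

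**Figure D2:**
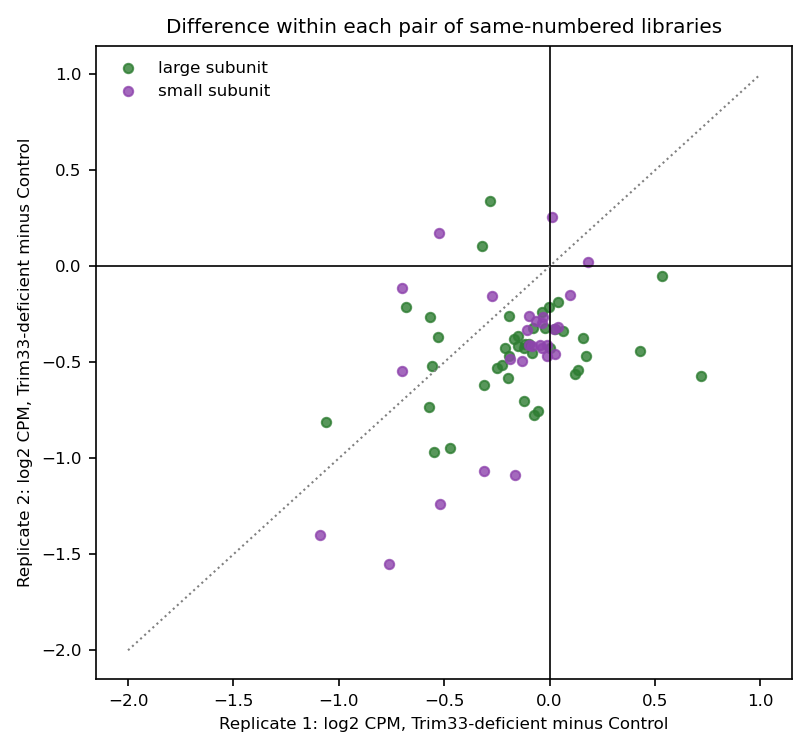
Log2 CPM difference, Trim33-deficient minus Control, within replicate 1 (horizontal) and within replicate 2 (vertical) for the 70 tested genes, coloured by subunit, with a dotted line of equality. Most points lie below the horizontal zero line (65 of 70) and below the dotted line, and 50 of 70 lie below 0 on both axes.

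Both subunits were lower to a similar degree. In the large subunit 38 of 42 genes lay below 0 with a median log2 fold change of −0.26, and in the small subunit 26 of 28 with a median of −0.22. The summed level of the large subunit genes was 85.5% of Control and that of the small subunit genes 85.4%. The ratio of the large to the small subunit sum was 1.42 and 1.36 in Control, against 1.39 and 1.39 in Trim33-deficient bodies. The Trim33-deficient values lay between the Control values, so no shift between subunits was detectable in these 4 libraries. These sums weigh genes by their counts, and Rpl4, Rpl8 and Rps3 alone made up 35.7% of the level summed over both subunits.

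**Figure D3:**
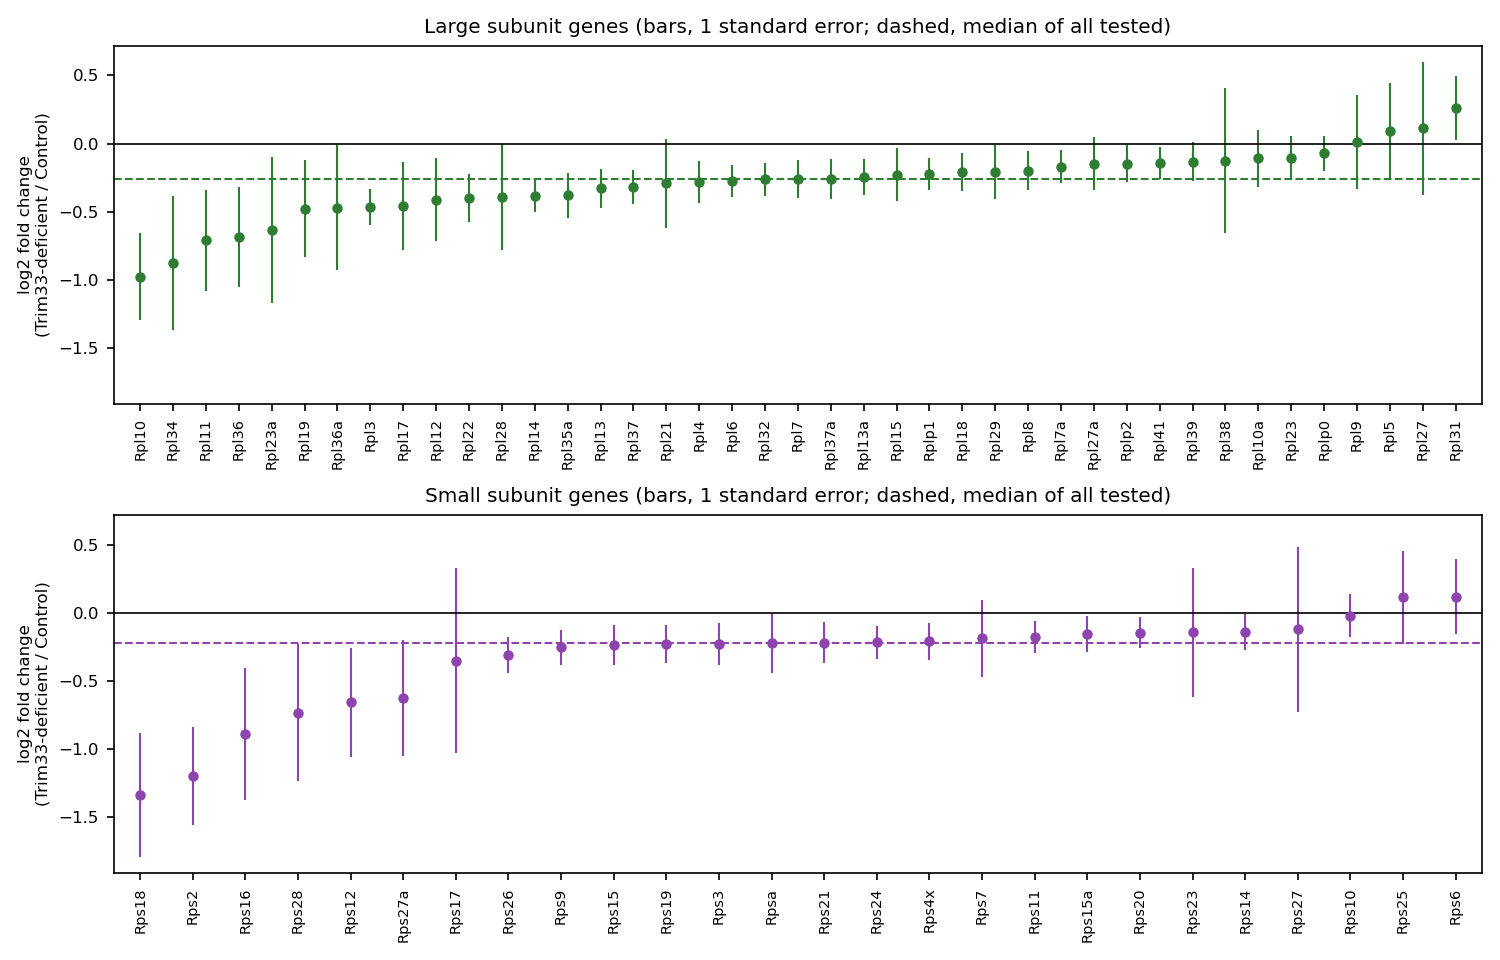
Log2 fold change of tested genes, Trim33-deficient over Control, with bars of 1 standard error, for the genes named on the axes, and dashed lines at the medians of all tested genes (−0.26 for the large subunit above, −0.22 for the small below). The genes run from −1.34 for Rps18 to 0.26 for Rpl31, and the widest bars belong to genes with few counts.

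The genes recorded at a mean of 20 CPM or more moved within a narrow band. All 40 had a log2 fold change below 0, from −0.46 for Rpl3 to −0.02 for Rps10, with a median of −0.23 and a median standard error of 0.14. The 30 genes under 20 CPM spread more widely, from −1.34 to 0.26, with 24 below 0, a median of −0.40 and a median standard error of 0.37. The 11 genes with under 50% of coding windows shared, counted mostly from reads without an identical copy in another annotated transcript, all lay below 0. Their range was −0.40 to −0.18 with a median of −0.25, and the groups did not overlap for 10 of them (background 21.4%). Their summed level was 84.3% of Control, against 87.5% for the 65 genes with more sharing.

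**Figure D4:**
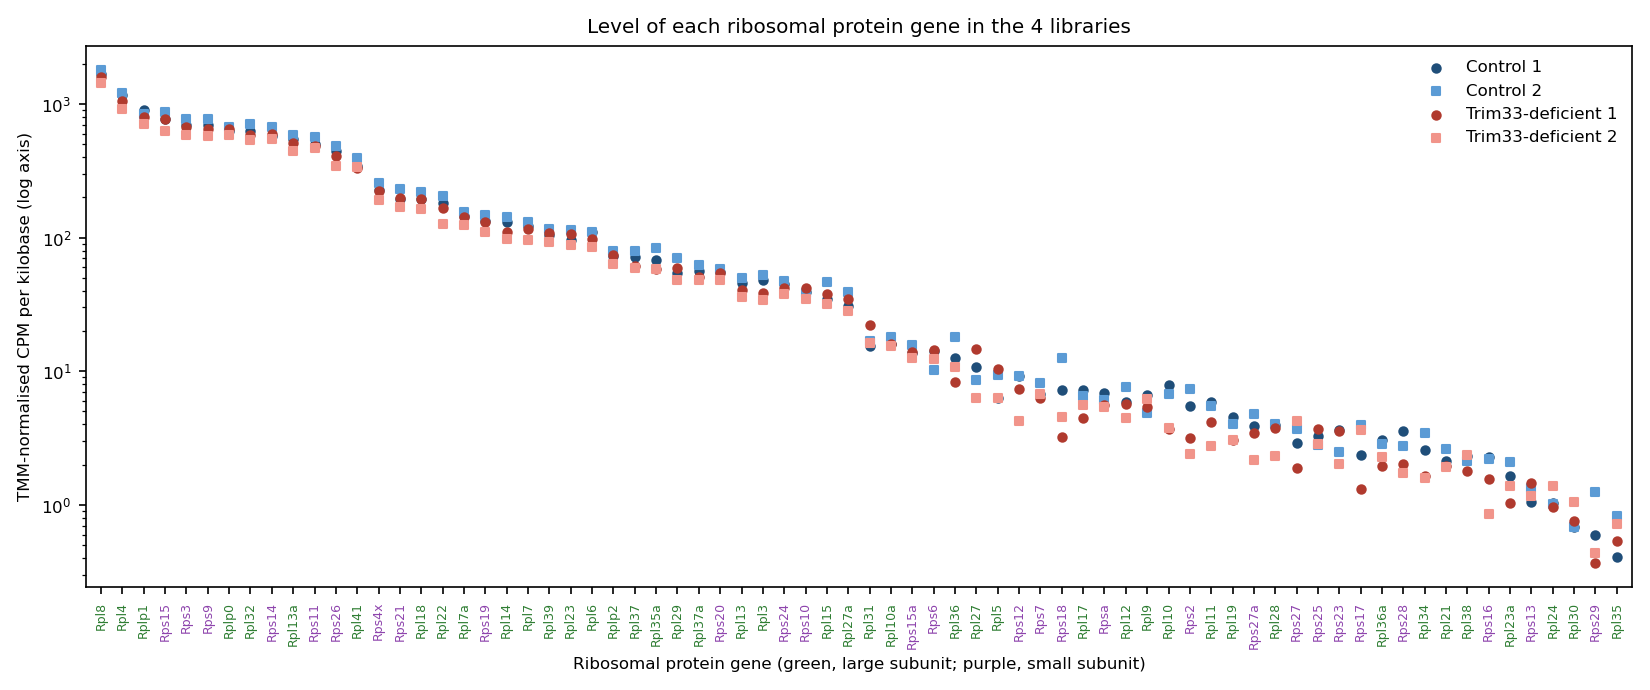
TMM-normalised CPM per kilobase (log axis) of the ribosomal protein genes named on the axis in each of the 4 libraries, ordered by mean level, with gene names in green for the large and purple for the small subunit. At high levels, from Rpl8 at a mean of 1623, the Trim33-deficient replicate 2 library sits lowest and the Control replicate 2 library highest for most genes, and the 4 libraries scatter more at low levels.

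Among proteins of the large subunit core, Rpl3, which reaches into the peptidyl transferase centre, had 64.5 and 70.5 CPM in Control and 52.0 and 45.9 CPM in Trim33-deficient bodies. Its groups did not overlap, with a log2 fold change of −0.46 and a standard error of 0.13 (adjusted p = 0.577, edgeR quasi-likelihood test). Rpl10, whose incorporation completes the large subunit, had 6.34 and 5.37 CPM in Control and 2.96 and 2.99 CPM in Trim33-deficient bodies. Both Trim33-deficient libraries held about the same value, below both Control libraries, with a log2 fold change of −0.98 and a standard error of 0.32 (adjusted p = 0.608). Every coding window of Rpl10 is shared, and its counts were 82, 55, 41 and 35. The highly counted Rpl4 and Rpl8 were lower by less, at log2 fold changes of −0.28 and −0.20 with standard errors of 0.15 and 0.14. All 10 genes placed in this core group lay below 0, with a median of −0.25.

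Other large subunit genes were among those with the smallest p-values. Rpl14 had 132 and 143 CPM in Control and 111 and 98.9 CPM in Trim33-deficient bodies, a log2 fold change of −0.39 with a standard error of 0.12. Rpl37 had 59.5 and 66.8 CPM in Control and 51.4 and 49.7 CPM in Trim33-deficient bodies, a log2 fold change of −0.32. Rpl35a, a gene mutated in some patients with the red cell disorder Diamond-Blackfan anaemia, had 33.5 and 41.1 CPM in Control and 28.6 and 28.7 CPM in Trim33-deficient bodies (log2 fold change −0.38). In these 3 genes the groups did not overlap, and their adjusted p-values ran from 0.595 to 0.657.

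The 3 stalk proteins, which recruit the elongation factors to the ribosome, all lay below 0. Rplp0, the stalk base, had 857 and 909 CPM in Control and 881 and 800 CPM in Trim33-deficient bodies. Its groups overlapped, with a log2 fold change of −0.07 and a standard error of 0.13. Rplp2 also overlapped, at 70.2 and 76.2 CPM in Control and 71.3 and 60.8 CPM in Trim33-deficient bodies (log2 fold change −0.15). Rplp1 did not overlap, with 452 and 423 CPM in Control and 396 and 354 CPM in Trim33-deficient bodies (log2 fold change −0.22, standard error 0.12).

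Rpl5 and Rpl11 join the 5S ribosomal RNA, and outside the ribosome the same complex binds the p53 ligase MDM2. Rpl5 had 12.8 and 19.1 CPM in Control and 21.2 and 12.8 CPM in Trim33-deficient bodies, so its pairs moved in opposite directions (log2 fold change 0.09, standard error 0.35). Its annotated exons overlap those of Fam69a on the opposite strand, and the strand setting of the counting is not given. Rpl11 had 4.87 and 4.59 CPM in Control and 3.46 and 2.31 CPM in Trim33-deficient bodies. Its groups did not overlap, with a log2 fold change of −0.71 and a standard error of 0.37. Both genes share every coding window.

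In the small subunit, the lowest values belonged to genes recorded at few counts. Rps18, a protein of the small subunit head, had 52 and 72 counts in Control, against 25 and 30 in Trim33-deficient bodies, or 4.02 and 7.03 against 1.80 and 2.56 CPM. This gave a log2 fold change of −1.34 and a standard error of 0.45 (adjusted p = 0.615, edgeR quasi-likelihood test), and without Control replicate 2 it was −0.88. Rps2, a protein at the messenger RNA entry, had 5.49 and 7.32 CPM in Control and 3.17 and 2.39 CPM in Trim33-deficient bodies, a log2 fold change of −1.19 with a standard error of 0.36 (adjusted p = 0.594). In both genes the groups did not overlap, and 87.8% and 84.2% of their coding windows are shared with other genes.

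Small subunit genes with more counts were lower by less, with smaller errors. Rps26, which lies at the messenger RNA exit, had 304 and 331 CPM in Control and 277 and 235 CPM in Trim33-deficient bodies (log2 fold change −0.31, standard error 0.13). Rps15 had 386 and 437 CPM in Control and 383 and 316 CPM in Trim33-deficient bodies (log2 fold change −0.23). Rpsa, the laminin receptor precursor of the small subunit, had 13.2 and 11.7 CPM in Control and 10.9 and 10.5 CPM in Trim33-deficient bodies (log2 fold change −0.22). None of these 3 genes overlapped between groups.

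Only 6 of the 70 genes had a log2 fold change above 0, and in 5 of them the standard error exceeded the value. They were Rpl31 (0.26, standard error 0.23), Rps6 (0.12, 0.28), Rps25 (0.11, 0.34), Rpl27 (0.11, 0.49), Rpl5 (0.09, 0.35) and Rpl9 (0.01, 0.34). Rpl31, a protein of the peptide exit, had 16.1 and 17.8 CPM in Control and 23.4 and 17.2 CPM in Trim33-deficient bodies. Its log2 difference was 0.53 within replicate 1 and −0.05 within replicate 2. Its exons overlap Tbc1d8 on the opposite strand, and those of Rps25 overlap Trappc4 and Ccdc84. Rps6, the substrate of S6 kinase downstream of mTOR, had 12.5 and 8.98 CPM in Control and 12.6 and 10.8 CPM in Trim33-deficient bodies, with overlapping groups. Leaving out 1 library turned the sign of Rpl5, Rps6, Rpl27 and Rps25. Rpl31 kept its sign under each library left out, and Rpl9 was not followed in this way.

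The 5 genes with the lowest tested levels were recorded at under 5 CPM in every library and were imprecise. Rpl34 had 16 and 17 counts in Control, against 11 and 9 in Trim33-deficient bodies (log2 fold change −0.88, standard error 0.49). Rps16 had 33 and 25 against 24 and 11 counts (−0.89, 0.48), Rpl23a 12 and 12 against 8 and 9 (−0.63, 0.53) and Rpl21 51 and 50 against 50 and 42 (−0.29, 0.33). Rpl38, whose loss in mice alters the axial skeleton, had 11 and 8 against 9 and 10 counts and overlapped (−0.13, 0.53). The exons of Rpl23a overlap Tlcd1 on the opposite strand. The 6 genes that failed the filter were Rpl24, Rpl26, Rpl30, Rpl35, Rps13 and Rps29. Their highest count in any library was 12, in Rps13, and a change in them was not detectable at this depth.

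Other genes of the translation machinery were compared by the same fit. In a list of elongation and initiation factors and further TOP messenger RNAs, 22 of 23 genes lay below 0 with a median log2 fold change of −0.17, and the groups did not overlap for 16 with Trim33-deficient lower (backgrounds 50.2% below 0 and 21.4% not overlapping and lower). Eif4b, which stimulates the helicase that unwinds messenger RNA, had 929 and 955 CPM in Control and 791 and 676 CPM in Trim33-deficient bodies (log2 fold change −0.36). Hnrnpa1, an RNA-binding protein with a TOP messenger RNA, had 36.5 and 40.3 CPM in Control and 30.7 and 25.7 CPM in Trim33-deficient bodies (−0.45). Vim, which encodes the mesenchymal filament protein vimentin, was the single gene of the list above 0, at 0.52.

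Host genes of small nucleolar RNAs, whose spliced transcripts carry TOP tracts without encoding a conserved protein, were lower by a larger median. All 9 lay below 0, with a median log2 fold change of −0.40, and the groups did not overlap for 7, beside the same backgrounds of 50.2% and 21.4%. Snhg6 had 42.4 and 43.0 CPM in Control and 26.8 and 23.1 CPM in Trim33-deficient bodies, a log2 fold change of −0.77 with a standard error of 0.15 (adjusted p = 0.483, edgeR quasi-likelihood test). Snhg5 had 41.0 and 45.6 CPM in Control and 30.9 and 27.6 CPM in Trim33-deficient bodies (−0.56). No gene of either list passed the test.

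Lists of other genes linked to ribosomes, not chosen for TOP tracts, had medians near 0. In ribosome biogenesis and RNA polymerase I, 33 of 54 genes lay below 0 with a median log2 fold change of −0.05, and the groups did not overlap for 9 with Trim33-deficient lower (background 21.4%) and 10 with it higher (background 19.3%), near the shares over all genes. Polr1c, a subunit shared by RNA polymerases I and III, was at −0.32, and Ltv1, which acts in the export of the small subunit, at 0.31. Of the mitochondrial ribosomal proteins 36 of 75 lay below 0 with a median of 0.01, with Mrpl24 at −0.46 and Mrpl20 at 0.44. Of the MYC and mTOR regulators 7 of 19 lay below 0 with a median of 0.04, with Deptor, an inhibitor of mTOR, at −0.62 and Mxd4, an antagonist of MYC, at 0.50. None of these genes passed the test, and the differences between the lists were not tested.

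**Figure D5:**
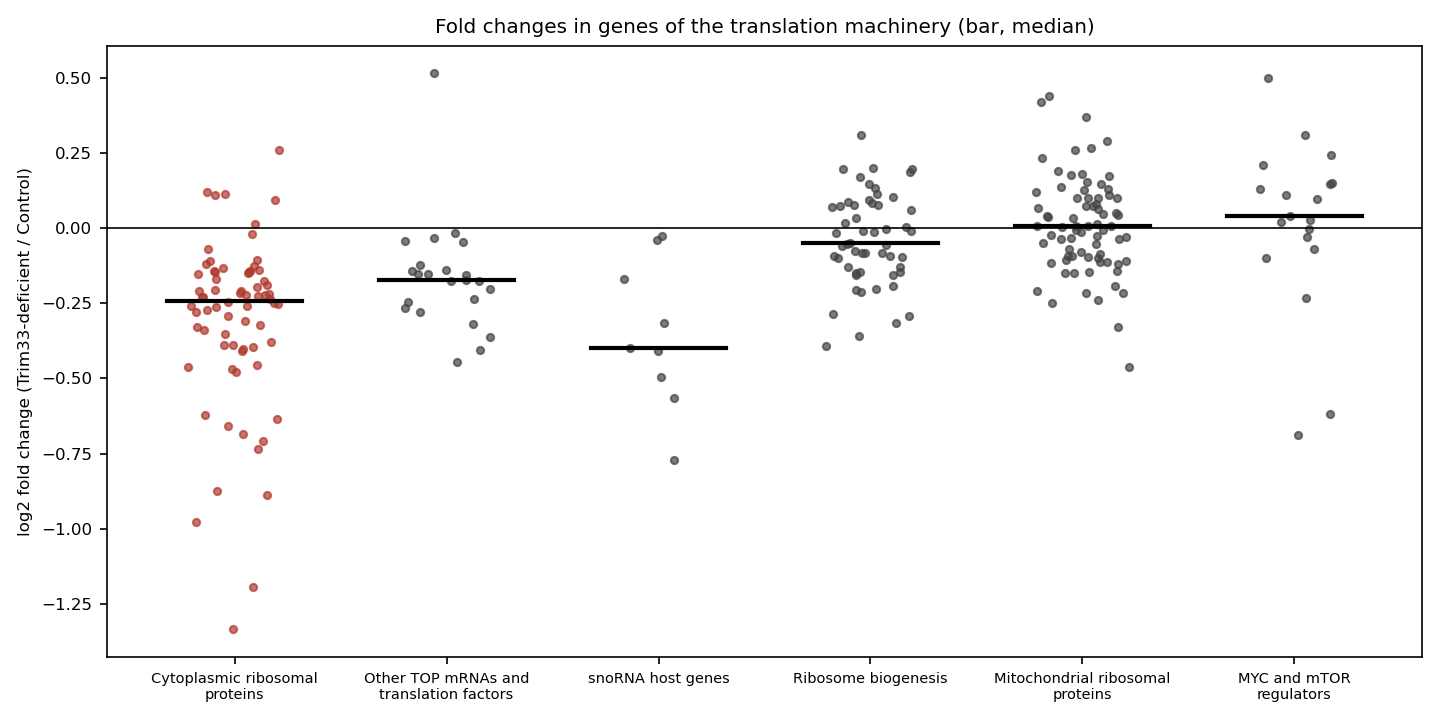
Log2 fold change, Trim33-deficient over Control, of each tested gene in 6 lists, with a bar at the median. The medians are −0.24 for cytoplasmic ribosomal proteins, −0.17 for other TOP messenger RNAs and translation factors, −0.40 for small nucleolar RNA host genes, −0.05 for ribosome biogenesis, 0.01 for mitochondrial ribosomal proteins and 0.04 for MYC and mTOR regulators.

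The start sites were examined because ribosomal protein genes and the other TOP genes lay below 0 together. RefSeq start windows on GRCm38.p6 were matched for 56 of the 76 genes. An uninterrupted run of at least 7 pyrimidines (C or T) reaching within 10 bases of the annotated start on the coding strand was present in 55.4% of them. The share was 56.2% in the list of other TOP messenger RNAs, 17.6% in mitochondrial ribosomal proteins and 23.1% in all genes with a window. It was 57.1% in the small nucleolar RNA host genes and 33.3% in visceral endoderm markers. The TOP lists were chosen partly for such tracts, so their shares follow in part from that choice. Annotated starts can lie a few bases from the start in use. The windows below cover 25 bases on each side of the annotated start, 5′ to 3′ on the coding strand, with the pyrimidine run in capitals. Rps18, Rpl14, Rpl35a and Rps26 are shown as genes with non-overlapping groups, Rplp2 and Rps6 as genes with overlapping groups.
Rps18: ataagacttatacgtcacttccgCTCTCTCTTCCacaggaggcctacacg
Rpl14: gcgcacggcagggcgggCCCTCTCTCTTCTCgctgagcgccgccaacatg
Rpl35a: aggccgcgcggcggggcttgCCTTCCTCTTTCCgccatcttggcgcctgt
Rps26: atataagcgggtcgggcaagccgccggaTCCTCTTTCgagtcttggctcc
Rplp2: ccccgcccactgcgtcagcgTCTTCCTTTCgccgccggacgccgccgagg
Rps6: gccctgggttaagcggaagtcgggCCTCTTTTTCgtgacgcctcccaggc
They lie at chr17:33955641-33955690 (minus strand), chr9:120571492-120571541 (plus), chr16:33056457-33056506 (plus), chr10:128626482-128626531 (minus), chr7:141447626-141447675 (plus) and chr4:86857343-86857392 (minus). The genes shown were taken from those with a run of at least 7 pyrimidines, so its presence in each was fixed by that choice. The run has 10 bases in Rplp2 and Rps6 and 9 to 14 bases in the others. Whether runs differ between genes with and without overlapping groups was not tested.

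Exact words were also counted on both strands of the whole windows, from 250 bases before to 50 bases after the start. CTCTTTC, a word found within many TOP tracts, was present in 30.4% of the 56 ribosomal protein genes and in 9.28% of all genes with a window. The share was 8.74% in tested genes with a window, 12.5% in the other TOP messenger RNAs and 20% in visceral endoderm markers. None of the 7 small nucleolar RNA host genes with a window held it. Whether the word follows the fold changes was not tested. It can overlap the pyrimidine runs. CCGGAAG, the core bound by ETS-family factors such as GABP, was present in 41.1% of the ribosomal protein genes. The share was 18.4% in tested genes with a window and 9.93% in all genes with a window. It was 36.8% in the mitochondrial ribosomal proteins and 44.7% in the biogenesis genes. Both of these lists hold the word about as often as the cytoplasmic ribosomal protein genes. Whether CCGGAAG follows the fold changes was not tested.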

How the data were processed

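RNA of 4 libraries, 2 Control and 2 Trim33-deficient, was sequenced, and samples were grouped by their titles. The values deposited for each library are raw counts, 1 row for each gene symbol. STAR, HTSeq, DESeq and mm9 are named in the submitters' processing notes, without versions or roles. Read length, strand setting and RNA selection: not given in the sources used here. Reads without a feature made up 55.5% to 56.0% and ambiguous reads at most 0.200%; rows naming no gene were left out of library sizes and tests. The authors' deposited table of 84 genes holds, per the file headers, a mean normalised signal, a ratio (fold change), its log2, and the p-value before and after adjustment; none of the 76 genes is in it.

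Genes were filtered with filterByExpr (14259 left), scaled by TMM and tested with edgeR 4.0.16 (quasi-likelihood, two-sided, Benjamini-Hochberg, threshold 0.05) in R 4.3.3. A standard error is the size of the log2 fold change over the root of F; a prior count of 2 entered log2 CPM. The alternatives were other tests (DESeq2 1.42.0, likelihood ratio, voom of limma 3.58.1), scalings and filters, the replicate block and each library left out. Counts in genes were 12390541, 10422738, 13808837 and 12109547; the number of libraries, not depth, limits precision for the highly counted genes. Transcript lengths and coding windows (50 bases, a length chosen here) came from GENCODE M21, 1 transcript linked to RefSeq for each gene, on GRCm38; no coordinates of the files' build were used.

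The labels speak of independent pairs, so equal replicate numbers were taken as pairs; deviations of same-numbered libraries from their group means correlated at 0.236 across genes. Replicates were not duplicate deposits (chi-square per degree of freedom 37.9 and 25.8). The genes, lists and tests were chosen with earlier results of these data known. Named genes were the 10 lower and 5 higher with the smallest p, the 5 highest and 5 lowest levels per kilobase, Rplp0, Rplp1, Rplp2, Rpsa, Rps6, Rpl5, Rpl11, the genes that failed the filter, and the 2 smallest p in each further list; Vim, Rps10, Rps3, Rpl41, Rpl7a and Rpl9 were named after their values were seen. Some items that this rule names are not reported here.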

Additional observations from a re-analysis of the deposited data

How the results depend on the processing

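Among the 70 tested ribosomal protein genes, 0 were called under each alternative run. Calls over the whole table moved from 2 to 141 with DESeq2, 169 with the likelihood ratio test, 0 with limma voom, 14 without the low-count filter and 4 at an adjusted p under 0.1. Leaving out a library gave 0 (either Trim33-deficient replicate) to 40 calls (Control replicate 2), the lone library of a group being taken to vary as the other group does. With the replicate block, which pairs libraries by number, the median was −0.24 with 64 of 70 below 0, 2 calls and no other call changed. Left-out libraries moved the median from −0.34 to −0.17, for the large subunit from −0.35 to −0.17 and for the small from −0.33 to −0.15, with 62 to 64 genes below 0. Other scalings gave medians of −0.28 to −0.23. Restricted sets gave 40 of 40 genes below 0 at 20 CPM or more, and 11 of 11 among those with under 50% of windows shared, a restriction chosen after seeing the data. Of 620 values for 45 named genes 607 kept direction and side of the threshold and 6, for Apoc2 and Cubn, lost their call. The 7 reversals all left out a library: Rpl5 (−0.17 without Control replicate 1, −0.32 without Trim33-deficient replicate 1, range −0.32 to 0.41), Rps6 (−0.097 without Control replicate 2, range −0.097 to 0.38), Rpl27 (−0.040 without Control replicate 2, −0.63 without Trim33-deficient replicate 1, range −0.63 to 0.59), and, without Trim33-deficient replicate 1, Rps25 (−0.080, range −0.080 to 0.29) and Rpl38 (0.068). The cause was not tested. Few counts limit the genes under 20 CPM.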

Other observations

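Rows named for ribosomal proteins but outside the choice by symbol gave further values. Rpl14-ps1, annotated as a processed pseudogene that shares 77.9% of the coding windows of Rpl14, had 4632 and 4101 counts in Control, against 4360 and 3452 in Trim33-deficient bodies, more than Rpl14 itself (1705 and 1462 in Control, 1538 and 1158 in Trim33-deficient bodies). This gave a log2 fold change of −0.32 and a standard error of 0.12, beside −0.39 for Rpl14. Which of these reads came from which locus was not tested. Rpl31-ps12, Rpl34-ps1 and Rplp2-ps1 had 0 counts in all libraries.

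Of the homologs with other symbol endings, 4 of 9 tested lay below 0, with a median log2 fold change of 0.00. Rps27l, a paralog of Rps27 known as a p53 target, had 70.7 and 73.0 CPM in Control and 75.7 and 78.6 CPM in Trim33-deficient bodies (0.10, standard error 0.11). Rpl22l1, the paralog of Rpl22, had 34.5 and 36.1 CPM in Control and 32.6 and 29.1 CPM in Trim33-deficient bodies (−0.19), beside 373, 423, 343 and 260 CPM for Rpl22 in the same order (−0.40). Rpl39l, a paralog of Rpl39 known from male germ cells, had 38, 17, 11 and 22 counts and overlapped between groups.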
